A study of Mus musculus with 24 samples.

Results

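Motile cilia and ependymal genes were followed in mouse hippocampus after paternal or grandpaternal methyl donor supplementation. The genes were taken from a list of 43 symbols made up of regulators of multiciliated cells and parts of the beating cilium, with the axonemal dynein heavy chains left out. This list was chosen with earlier results of these data known. Counts of its genes set against all genes are therefore not an independent test. A gene was measured by the brightest of the probes whose transcript identifier maps to its symbol. A probe was matched for 39 of the 43 genes, out of 19751 genes with a named probe, and no probe was matched for Ccdc40, Lrrc23, Cfap43 and Cfap54.

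Hippocampal RNA was hybridised to 24 one-colour Agilent arrays in 4 groups of 6 (CD or MD, in F1 and in F2), each array holding a pool of 4 mice. Fathers were C57BL/6J males kept for 6 weeks before mating either on the control chow T.2918.12 (CD) or on the methyl donor chow 3MS ZM (MD), which was enriched per kg in zinc (150 mg), vitamin B12 (1.5 mg), folic acid (15 mg), betaine (15 g), choline (15 g) and l-methionine (7.5 g). The F1 pools came from isogenic hybrids of these males with 129S6/SvEv females. The F2 pools came from F1 sons of MD or CD fathers crossed to CD F1 females, so that their mixed C57BL/6J x 129S6/SvEv background differed between animals. All offspring were themselves kept on the control chow, and the labels give an age of 4 weeks while the methods speak of adults. Sex ratios were described as balanced, but the sex of the mice in a pool was not given for any array. Nothing states that pools of a group came from separate litters, and p-values therefore measure the spread between pools.

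Motile cilia are built on an axoneme of doublet microtubules around a central pair, and dynein arms anchored on the doublets bend it. Radial spokes, the central pair apparatus and the dynein regulatory complex time that bending. In the brain such cilia cover the ependymal cells that line the ventricles, and the transcription factor FOXJ1 with factors of the RFX family switches on the genes that build them.

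RFX factors bind a motif called the X-box. The promoter windows of RefSeq (assembly GRCm38.p6, the 250 bases before each annotated start) were therefore searched on both strands for 3 motifs. They were the X-box half-site GTTGCC, a strict X-box and the forkhead motif TGTTTAC of the FOXJ1 kind. The strict X-box was a pair of inverted GTTNCC half-sites exactly 2 bases apart, which can overlap a half-site. X-boxes with other letters or spacing were not searched, so genes without the strict form may hold one. A window was listed for 36 of the 43 genes, and 17 of them held a half-site, against 3195 of all 27025 genes in the table, or 11.8%. The strict X-box was found for 1 of the 36 genes and for 0.444% of all genes, and the forkhead motif for 3 of the 36 and 3.54% of all genes. The genes that followed one another most closely over arrays, described further on, included 9 with a window, of which 5 held a half-site. Shown here are 4 of those 5 (Mlf1, Dynlrb2, Enkur and Cfap44), with Tekt1, where a pair of half-sites lies close to the start, and Pifo, the gene with the strict X-box. Capitals mark the motifs, and each line runs 5′ to 3′ on the strand of the gene up to the base before its start. Starts of a gene are numbered by genome coordinate. For Tekt1 and Pifo, on the minus strand, the second start therefore lies upstream of the first.
Mlf1 (chr3:67373847-67374096, plus strand): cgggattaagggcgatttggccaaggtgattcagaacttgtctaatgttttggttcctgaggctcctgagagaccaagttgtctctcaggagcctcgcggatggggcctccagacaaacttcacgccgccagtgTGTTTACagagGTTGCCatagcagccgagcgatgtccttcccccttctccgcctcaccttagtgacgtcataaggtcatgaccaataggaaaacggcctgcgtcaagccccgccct
Dynlrb2 (chr8:116504765-116505014, plus strand): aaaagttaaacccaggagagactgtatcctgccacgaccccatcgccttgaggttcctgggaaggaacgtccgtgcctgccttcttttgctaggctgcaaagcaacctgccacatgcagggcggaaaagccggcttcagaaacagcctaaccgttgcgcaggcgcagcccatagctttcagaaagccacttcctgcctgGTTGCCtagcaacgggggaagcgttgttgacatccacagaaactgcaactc
Enkur (chr2:21205366-21205615, minus strand): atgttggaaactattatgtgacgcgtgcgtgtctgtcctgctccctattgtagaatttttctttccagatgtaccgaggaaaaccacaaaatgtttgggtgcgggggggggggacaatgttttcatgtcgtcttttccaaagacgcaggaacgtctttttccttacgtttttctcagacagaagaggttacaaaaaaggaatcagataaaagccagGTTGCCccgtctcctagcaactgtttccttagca
Cfap44 (chr16:44394549-44394798, plus strand): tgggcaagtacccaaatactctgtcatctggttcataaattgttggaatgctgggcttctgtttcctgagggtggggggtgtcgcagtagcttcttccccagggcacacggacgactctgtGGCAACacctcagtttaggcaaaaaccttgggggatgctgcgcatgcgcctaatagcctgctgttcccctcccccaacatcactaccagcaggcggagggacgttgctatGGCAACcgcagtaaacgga
Tekt1, second start (chr11:72361883-72362132, minus strand): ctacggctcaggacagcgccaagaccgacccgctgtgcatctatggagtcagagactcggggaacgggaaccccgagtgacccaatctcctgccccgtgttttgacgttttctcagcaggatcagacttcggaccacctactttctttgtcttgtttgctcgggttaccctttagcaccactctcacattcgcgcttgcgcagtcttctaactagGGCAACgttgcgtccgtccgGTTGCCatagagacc
Pifo, first start (chr3:106001498-106001747, minus strand): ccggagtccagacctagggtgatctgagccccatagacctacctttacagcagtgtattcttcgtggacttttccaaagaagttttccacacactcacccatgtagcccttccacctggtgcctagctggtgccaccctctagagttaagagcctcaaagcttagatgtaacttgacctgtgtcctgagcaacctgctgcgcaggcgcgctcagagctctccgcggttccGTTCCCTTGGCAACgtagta
In Mlf1 the forkhead motif began 116 and the half-site 105 bases before the start, and it was the 1 gene of the 36 that held both. The half-site nearest to the start began 51 bases before it in Dynlrb2, 34 in Enkur, 19 in Cfap44 and 15 in the second start of Tekt1. The first start of Tekt1, the second start of Pifo and the windows of Cfap52, Tmem212 and Tctex1d4 held none of these letters, and no window was listed for Foxj1 or Rsph1. Ccno and Mcidas, both on chromosome 13, each held a half-site further from the start, at 219 and 195 bases. These matches describe letters in a window and are not evidence of binding.

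All arrays gave usable signal. The median intensity of an array ranged from 148 to 318, between 27383 and 37013 of 43020 non-control spots were well above background, and no spot was saturated. Before normalization the median intensity ran lower in MD F1 (167 to 262) than in CD F1 (251 to 318). It was 151 to 262 in CD F2 and 148 to 262 in MD F2. Signals are given as log2 of the intensity after quantile normalization within a generation. Every one of the 12 hippocampal neuron markers examined and every one of 10 markers of ependyma was well above background on all 24 arrays. MD F1 replicate 6, CD F2 replicate 6 and MD F2 replicate 3 stood apart from the rest. Their mean correlation with the other arrays of their generation was 0.985, 0.977 and 0.974, against 0.992 to 0.994 for the other F1 arrays and 0.986 to 0.988 for the other F2 arrays. The F1 and F2 arrays were on separate slides, so generation and slide cannot be told apart, and each slide held 2 arrays of either diet.

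Of the 39 genes, 33 were well above background on all 24 arrays. The exceptions were Spag16, Spag17, Dnaaf1, Ak7, Pifo and Cfap206, and for Spag17 none of the MD F2 arrays was well above background. No fold is therefore given for Spag17 in F2, and the main F2 counts are given with its fitted value and without it.

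In F1, most motile cilia genes had higher signal in offspring of MD fathers, by small amounts, and no single gene passed the threshold over the whole array. The log2 difference between MD F1 and CD F1 was positive for 33 of the 39 genes, against 54.7% of all genes, and its median was 0.27, against 0.02 over all genes. Unadjusted p-values under 0.05 (limma) were reached by 16 genes with higher signal in MD F1 and by 2 with lower signal, where the shares over all genes were 7.82% and 5.54%. After Benjamini-Hochberg adjustment over the array, 0 of the 39 genes passed a false discovery rate (FDR) of 0.1, a threshold passed by 0.033% of all probes. MD F1 and CD F1 did not overlap, with MD higher, for 2 genes, Foxj1 and Enkur, and this held for 0.906% of all genes. Within each of the 3 F1 slides taken alone, the MD minus CD difference was above 0 for 22 of the 39 genes in every slide. The share of all genes with this pattern is not given, so the count cannot be set against the array. Without MD F1 replicate 6, 20 genes had higher signal at an unadjusted p under 0.05 and the median was again 0.27. In that fit 0 of the 39 genes passed the FDR of 0.1, while 152 probes of the whole array did, against 13 in the main fit. In a fit of all 24 arrays normalized together, where 73 probes passed that FDR, 6 genes had higher signal at an unadjusted p under 0.05. After 75th percentile scaling, 27 of the 39 genes were positive and 12 had higher signal at that p, with a median of 0.22. With another background correction (normexp on median signals), 29 were positive and 16 had higher signal at that p, with a median of 0.17. Shares over all genes at that p are not given for these alternatives or for those below, so their counts cannot be set against the array.

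In F2, the direction was the other one. The log2 difference between MD F2 and CD F2 was negative for 31 of the 39 genes, against 48.3% of all genes, and its median was -0.47, against 0.01 over all genes. That median is the fitted value of Spag17 itself, and without this gene 30 of 38 were negative with a median of -0.40. Unadjusted p-values under 0.05 were reached by 11 genes with lower signal in MD F2 and by Ccno alone with higher signal, where the shares over all genes were 2.81% and 2.84%. The FDR of 0.1 was passed by 0 of the 39 genes in limma and by 0% of all probes. The groups did not overlap for 1 gene with MD higher (Ccno), against 0.223% of all genes, and for 0 genes with MD lower, against 0.157%. The difference was below 0 in all 3 F2 slides for 19 genes, again without the share over all genes. The mean over the 39 genes differed by -0.59, -0.57 and -0.10 within the 3 F2 slides and by 0.13, 0.16 and 0.27 within the 3 F1 slides. Over the 33 genes well above background on all arrays, the F2 median was -0.27. Without CD F2 replicate 6 and MD F2 replicate 3, 16 genes had lower signal at an unadjusted p under 0.05 and the median was -0.42. Leaving out CD F2 replicate 6 alone gave 18 such genes and a median of -0.61, and leaving out MD F2 replicate 2 alone gave 17 and -0.54. With slide as a block there were 18 such genes, and with the choroid plexus level described further on as a term there were 7.

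**Figure D1:**
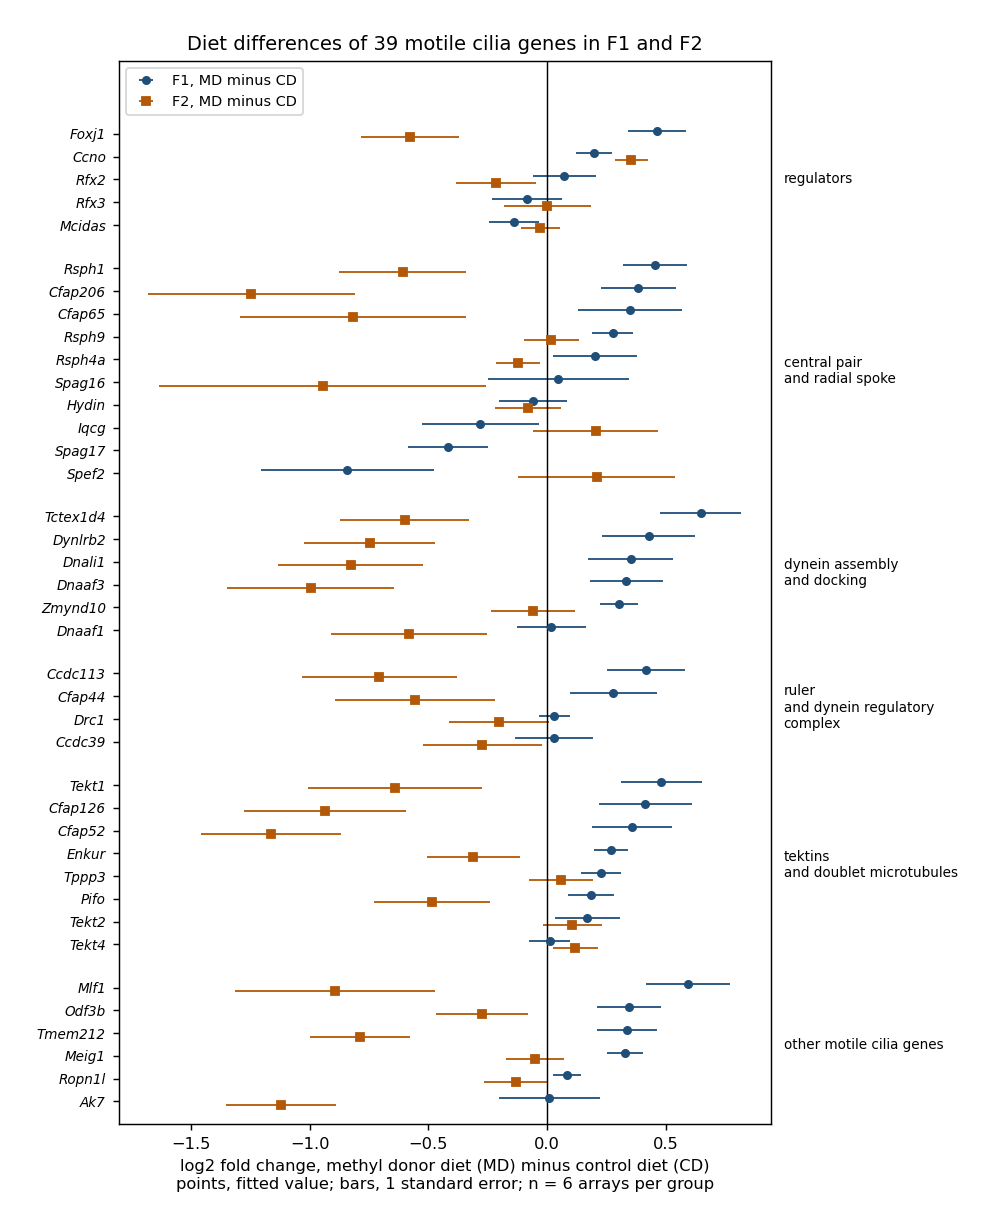
Log2 fold change (MD minus CD) of each of the 39 genes in F1 (circles) and F2 (squares), grouped by role; bars are 1 standard error of the limma fit, with 6 arrays per group. Values in F1 lie to the right of 0 for 33 genes and values in F2 to the left of 0 for 30 of the 38 genes shown (Spag17 has no F2 value), while Ccno lies to the right in both.

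The sign of the difference was positive in F1 and negative in F2 for 28 of the 39 genes, against 25% of all genes, and positive in both for 5, negative in both for 3 (Spag17 among them) and negative then positive for 3. F1 and F2 share no arrays, but the list was chosen with earlier results of these data known. These counts are therefore not independent support for the pattern. The difference between the 2 diet differences, F1 minus F2, was tested in a fit over all 24 arrays. It was positive for 33 genes, against 51.9% of all genes, and its median was 0.58, against 0.01 over all genes. Without Spag17 it was positive for 32 of 38 genes, with a median of 0.60. Over the 33 genes well above background on all arrays the median was 0.38. Unadjusted p-values under 0.05 were reached by 20 genes with a positive value and 0 with a negative value, where the shares over all genes were 4.54% and 3.45%. The FDR of 0.1 was passed by 0 of the 39 genes and by 0.0127% of all probes. Without all 3 of the arrays that stood apart, 22 genes were positive and 1 negative at an unadjusted p under 0.05.

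The 5 regulators gave values of either sign (medians 0.07 in F1 and -0.03 in F2). Foxj1, the forkhead factor at the top of the motile cilia programme, ranged from 9.57 to 9.99 in CD F1 (median 9.80) and from 10.07 to 10.69 in MD F1 (median 10.11). In F2 it ranged from 9.89 to 10.98 in CD F2 (median 10.34) and from 9.42 to 10.27 in MD F2 (median 9.77). All 6 MD arrays lay above all CD arrays in F1, and all 6 lay below the CD median in F2. The log2 difference was 0.46 ± 0.12 (SE) in F1, a 1.38-fold higher signal (unadjusted p = 0.00256, FDR = 0.204, limma), and -0.58 ± 0.21 in F2, a 1.49-fold lower signal (unadjusted p = 0.0171, FDR = 0.89). Its difference between generations was 1.05 ± 0.25 (unadjusted p = 0.000385, FDR = 0.266). The F1 difference had the same sign in each slide (0.32, 0.57 and 0.49), as had the F2 difference (-0.55, -0.89 and -0.30).

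Ccno, a cyclin-like protein needed to multiply basal bodies in multiciliated cells, did not share the turn of direction. It ranged from 9.39 to 9.60 in CD F1 and from 9.56 to 9.98 in MD F1, and from 8.84 to 9.09 in CD F2 and from 9.22 to 9.47 in MD F2. In F2 every MD array was above every CD array. The log2 difference was 0.20 ± 0.08 in F1 (FDR = 0.294) and 0.35 ± 0.07 in F2 (unadjusted p = 0.000249, FDR = 0.89), and these were not shown to differ (-0.16 ± 0.10, FDR = 0.7). In a fit of all 24 arrays together Ccno passed the FDR in F2, at 0.0902. In that fit 18 probes of the whole array passed, against 0 in the main fit. With another background correction (normexp on median signals) the differences of Ccno were 0.09 in F1 and 0.22 in F2.

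Rfx2 and Rfx3, the X-box binding factors of ciliated cells, and Mcidas, which drives the multiciliated fate, gave differences between -0.22 and 0.07 with unadjusted p-values of 0.206 or more. Rfx3 was measured by 3 probes, all with negative values in F1. The brightest gave -0.08 ± 0.15, while the other 2 gave -0.32 (unadjusted p = 0.0324) and -0.40 (unadjusted p = 0.0149). The probe named for Mcidas read between 16.21 and 17.34 on every array, and whether it measures the Mcidas transcript was not tested.

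**Figure D2:**
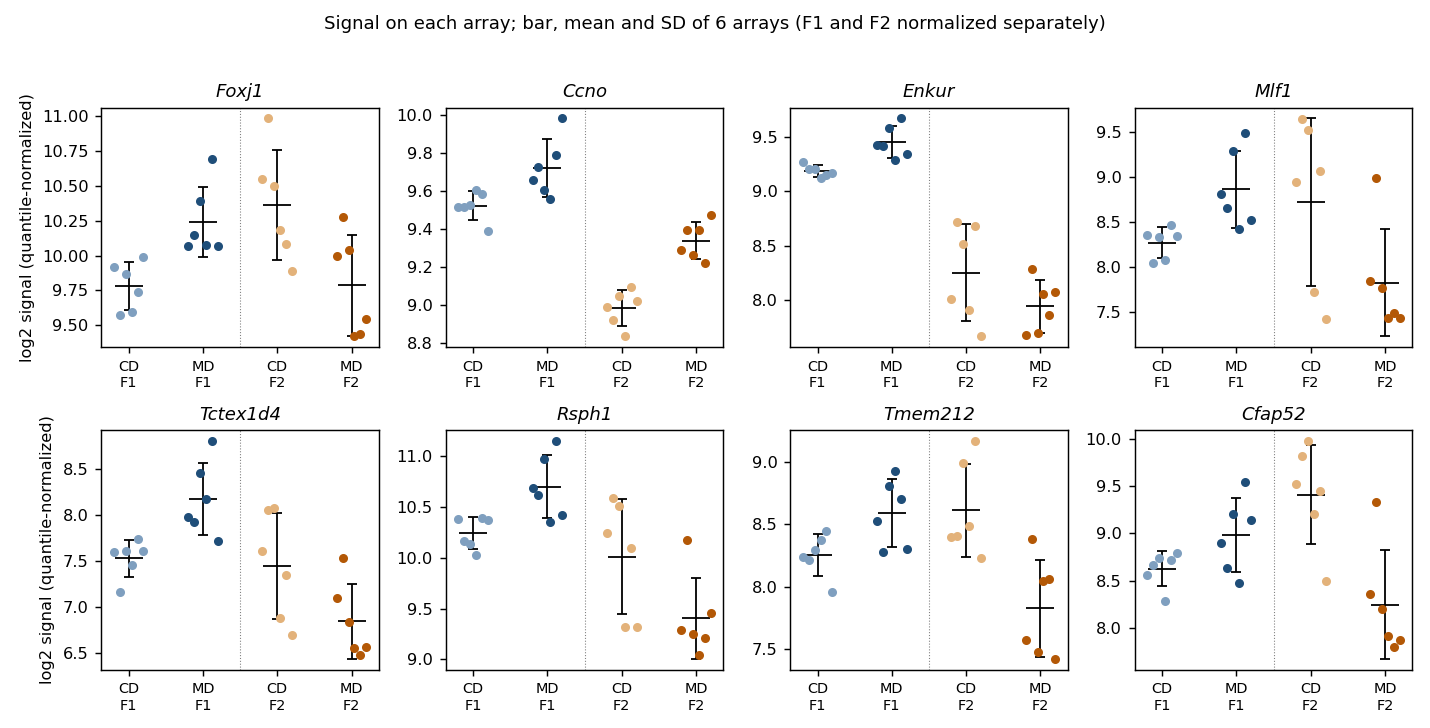
Log2 signal of 8 genes on each of the 24 arrays, by group; horizontal bars are means and vertical bars SDs of 6 arrays, and the 2 generations were normalized separately. Foxj1 and Enkur in F1 and Ccno in F2 show no overlap between the diets, while CD F2 arrays spread widely for Mlf1, Rsph1 and Tctex1d4.

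Genes of the central pair and radial spokes were mixed. Of 10 such genes, 3 were higher in MD F1 at an unadjusted p under 0.05 (Rsph1, Rsph9 and Cfap206), 2 were lower (Spef2 and Spag17), and 2 were lower in MD F2 (Rsph1 and Cfap206). Rsph1, a radial spoke head protein, ranged from 10.03 to 10.40 in CD F1 (median 10.27) and from 10.35 to 11.15 in MD F1 (median 10.65), and from 9.32 to 10.59 in CD F2 (median 10.17) and from 9.05 to 10.17 in MD F2 (median 9.27). In F1 every MD array was above the CD median, and in F2 MD replicate 2, at 10.17, lay at the CD median with the other MD arrays at 9.45 or less. Its log2 differences were 0.45 ± 0.14 (FDR = 0.219) and -0.61 ± 0.27 (FDR = 0.89), and a further Rsph1 probe gave 0.42 and -0.82.

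Rsph9, another spoke head protein, ranged from 12.80 to 13.18 in CD F1 and from 13.02 to 13.44 in MD F1. Its difference was 0.28 ± 0.09 in F1 (FDR = 0.231) and 0.02 ± 0.12 in F2. Cfap206, a protein of the radial spoke base and central apparatus, was the gene with the most negative F2 value. It ranged from 3.95 to 6.07 in CD F2 (median 5.58) and from 2.91 to 5.50 in MD F2 (median 4.18), all 6 MD arrays lying below the CD median. Its difference was -1.25 ± 0.43 in F2 (unadjusted p = 0.0146, FDR = 0.89) and 0.38 ± 0.16 in F1 (FDR = 0.31), and 1.60 ± 0.46 between generations (FDR = 0.353). With normexp on median signals these were -0.30, 0.09 and 0.42, so that their size depended on the background correction. It was well above background on all arrays but 1 of MD F2.

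Spef2, a central apparatus protein, ranged from 13.95 to 14.57 in CD F1 and from 11.58 to 14.22 in MD F1, with a difference of -0.84 ± 0.36 (unadjusted p = 0.0393, FDR = 0.327) and 0.21 ± 0.33 in F2. The value of 11.58 was that of MD F1 replicate 6, which stood apart, and the other MD F1 arrays ranged from 13.26 to 14.22. The size of the F1 difference thus rests in part on that array. Spag17, of the same apparatus, had F1 means of 3.67 ± 0.30 and 3.26 ± 0.33 (SD), and was well above background on 5 CD F1 arrays and 1 MD F1 array. Its difference in F1 was -0.42 ± 0.17 (unadjusted p = 0.0297) and near 0 (-0.0018) with normexp on median signals. Its other probe was well above background on none of the arrays, and no value is given for it. Hydin and Iqcg, listed in the same class, had negative values in F1 too (-0.06 and -0.28). Cfap65, Spag16 and Rsph4a, also of the central apparatus or spokes, gave 0.35, 0.05 and 0.20 in F1 and -0.82, -0.95 and -0.12 in F2, with no unadjusted p under 0.05. Spag16 was well above background on 4 CD F2 arrays and 1 MD F2 array, which limits its F2 value. A further Rsph4a probe, well above background on all arrays, gave 0.10 in F1 and -0.57 in F2 (unadjusted p = 0.0421).

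All 6 genes for dynein assembly and dynein subunits other than heavy chains had positive values in F1 and negative values in F2. Their medians were 0.34 and -0.67, and 3 were past an unadjusted p of 0.05 in F1 (Tctex1d4, Dynlrb2 and Zmynd10) and 4 in F2 (Tctex1d4, Dynlrb2, Dnaaf3 and Dnali1). Tctex1d4, a dynein light chain of the Tctex kind, ranged from 7.17 to 7.74 in CD F1 (median 7.61) and from 7.73 to 8.81 in MD F1 (median 8.08). In F2 it ranged from 6.70 to 8.08 in CD (median 7.48) and from 6.48 to 7.54 in MD (median 6.70). In F1 all 6 MD arrays were above the CD median, and in F2 5 of them were below it. Its difference of 0.65 ± 0.17 in F1 was the highest of the 39 genes (1.57-fold, unadjusted p = 0.00249, FDR = 0.203), and it was -0.60 ± 0.27 in F2 and 1.24 ± 0.33 between generations (unadjusted p = 0.001, FDR = 0.326).

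Zmynd10, a factor that helps to assemble dynein arms in the cytoplasm, ranged from 9.05 to 9.24 in CD F1 and from 9.21 to 9.67 in MD F1. Its difference was 0.30 ± 0.08 in F1 (unadjusted p = 0.00273, FDR = 0.206) and -0.06 ± 0.18 in F2. The roadblock-type light chain Dynlrb2 gave 0.43 ± 0.20 and -0.75 ± 0.28, the assembly factor Dnaaf3 gave 0.33 ± 0.15 and -0.997 ± 0.35, and the inner arm light chain Dnali1 gave 0.35 ± 0.18 and -0.83 ± 0.31. Dnaaf1 gave 0.02 and -0.58.

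The 4 genes listed under the molecular ruler and the dynein regulatory complex had positive values in F1 and negative values in F2. Iqcg, a subunit of the same complex listed with the central pair and spokes, had the opposite signs (-0.28 and 0.21). Ccdc113 gave 0.42 ± 0.16 (unadjusted p = 0.0252) and -0.71 ± 0.33. Ccdc39, which sets the repeat along the doublets, gave 0.03 and -0.27, Drc1 gave 0.03 and -0.20, and Cfap44 gave 0.28 and -0.56, none with an unadjusted p under 0.05.

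Of 8 genes for tektins and other proteins of the doublet microtubules, all had positive F1 values and 5 had negative F2 values. Enkur, an inner doublet protein, ranged from 9.12 to 9.27 in CD F1 (median 9.18) and from 9.29 to 9.67 in MD F1 (median 9.42). It ranged from 7.67 to 8.72 in CD F2 and from 7.68 to 8.29 in MD F2. The F1 groups did not overlap and the F2 groups did. Its difference was 0.27 ± 0.07 in F1 (1.2-fold, unadjusted p = 0.0027, FDR = 0.206) and -0.31 ± 0.20 in F2 (FDR = 0.916).

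Tekt1, a filament-forming tektin, ranged from 10.48 to 11.15 in CD F1 and from 10.60 to 11.70 in MD F1, with a difference of 0.48 ± 0.17 (unadjusted p = 0.0155), and 0.50 by its other probe. In F2 it gave -0.64 ± 0.36. Cfap52, an inner doublet protein, had the most negative F2 value in this class. It ranged from 8.50 to 9.98 in CD F2 (median 9.48) and from 7.81 to 9.34 in MD F2 (median 8.06). MD F2 replicate 2, at 9.34, was the one MD array among the CD values, the others lying between 7.81 and 8.36. Its difference was -1.16 ± 0.30 in F2, a 2.24-fold lower signal (unadjusted p = 0.00214, FDR = 0.89), 0.36 ± 0.17 in F1 and 1.52 ± 0.35 between generations (unadjusted p = 0.000272, FDR = 0.242). That last value passed the FDR when CD F2 replicate 6 (0.065) or MD F2 replicate 2 (0.0647) was left out. In those fits 41 and 29 probes of the whole array passed, against 5 in the main fit. Cfap126 gave 0.41 and -0.94, the latter at an unadjusted p of 0.0178. Tppp3, a tubulin-binding protein, gave 0.23 ± 0.08 in F1 (unadjusted p = 0.0203), Pifo 0.18, Tekt2 0.17 and Tekt4 0.01. In F2 these 4 genes gave 0.06, -0.48, 0.11 and 0.12.

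The 6 remaining genes of motile cilia all had positive values in F1 and negative values in F2. Meig1, needed to assemble the flagellum of sperm, had the smallest p-value of the 39 genes in F1. It ranged from 9.83 to 10.13 in CD F1 and from 10.09 to 10.45 in MD F1, with all 6 MD arrays above the CD median, and from 8.81 to 9.48 in CD F2 and from 8.85 to 9.21 in MD F2. Its difference was 0.33 ± 0.08 in F1 (1.25-fold, unadjusted p = 0.00109, FDR = 0.194) and -0.05 ± 0.12 in F2.

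Mlf1, a gene of ciliated cells first named in leukaemia, ranged from 8.05 to 8.47 in CD F1 (median 8.34) and from 8.42 to 9.49 in MD F1 (median 8.73). In F2 it ranged from 7.42 to 9.64 in CD (median 9.01) and from 7.43 to 8.99 in MD (median 7.63), so the CD F2 arrays alone covered the whole range. Its difference was 0.59 ± 0.18 in F1 (1.51-fold, FDR = 0.219) and -0.89 ± 0.42 in F2 (FDR = 0.892).

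Tmem212, a transmembrane protein gene, had the smallest p-value for the difference between generations. It ranged from 7.96 to 8.45 in CD F1 and from 8.27 to 8.93 in MD F1, and from 8.23 to 9.17 in CD F2 (median 8.45) and from 7.42 to 8.38 in MD F2 (median 7.81). All 6 MD arrays were above the CD median in F1 and below it in F2. The differences were 0.34 ± 0.13 in F1, -0.79 ± 0.21 in F2 (unadjusted p = 0.00281, FDR = 0.89) and 1.12 ± 0.25 between generations (unadjusted p = 0.000177, FDR = 0.241). Without CD F2 replicate 6 or MD F2 replicate 2 the last value passed the FDR, at 0.0989 and 0.0769. In those fits 41 and 29 probes of the whole array passed, against 5 in the main fit.

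Ak7, an adenylate kinase of axonemes, ranged from 5.33 to 6.50 in CD F2 and from 4.43 to 5.47 in MD F2. The groups overlapped through CD replicate 6, the lowest CD array, and MD replicate 2, the highest MD array. Its difference was -1.12 ± 0.23 in F2 (2.17-fold lower, unadjusted p = 0.00046, FDR = 0.89) and 0.01 ± 0.21 in F1. With normexp on median signals the F2 difference was -0.39. It was well above background on 5 of the 6 arrays of either F2 group. Odf3b gave 0.35 (unadjusted p = 0.0244) and -0.28, and Ropn1l 0.08 and -0.13. Foxj1, Tctex1d4, Tmem212, Dynlrb2, Rsph1 and Cfap206 were the 6 genes past an unadjusted p of 0.05 in both generations, positive in F1 and negative in F2, a pattern met by 0.344% of all genes.

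The 39 genes covaried over arrays within groups. After subtracting group means, the median Pearson correlation over pairs of the 39 genes was 0.33 over the 12 F1 arrays and 0.40 over the 12 F2 arrays. Over pairs of the 13718 genes well above background on all arrays it was 0.02 and 0.00406. These correlations describe arrays that share slides. In F2 the arrays fell into a cluster of 5 and one of 7 by their choroid plexus level, given further on, and the F2 correlations here and below span both clusters. With the arrays that stood apart left out they were 0.26 and 0.37 over the 39 genes.

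Set against the mean of the other members, 19 of the 39 genes had a correlation over 0.5 in both generations and 11 over 0.8 in both. The 11 were Dynlrb2 (0.99 in F1 and 0.92 in F2), Dnali1, Cfap126, Mlf1, Cfap65, Enkur, Odf3b, Cfap44, Rsph1, Spag16 and Tctex1d4. Foxj1 had 0.79 and 0.64. The regulators Ccno (-0.40 and 0.32), Rfx2 (0.39 and 0.09) and Mcidas (0.78 and -0.59) did not follow the others in both generations, nor did Tppp3 (-0.19 and -0.70), Tekt2 (-0.30 and -0.06), Tekt4 (0.04 and -0.43) or Drc1 (-0.48 and 0.44).

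**Figure D3:**
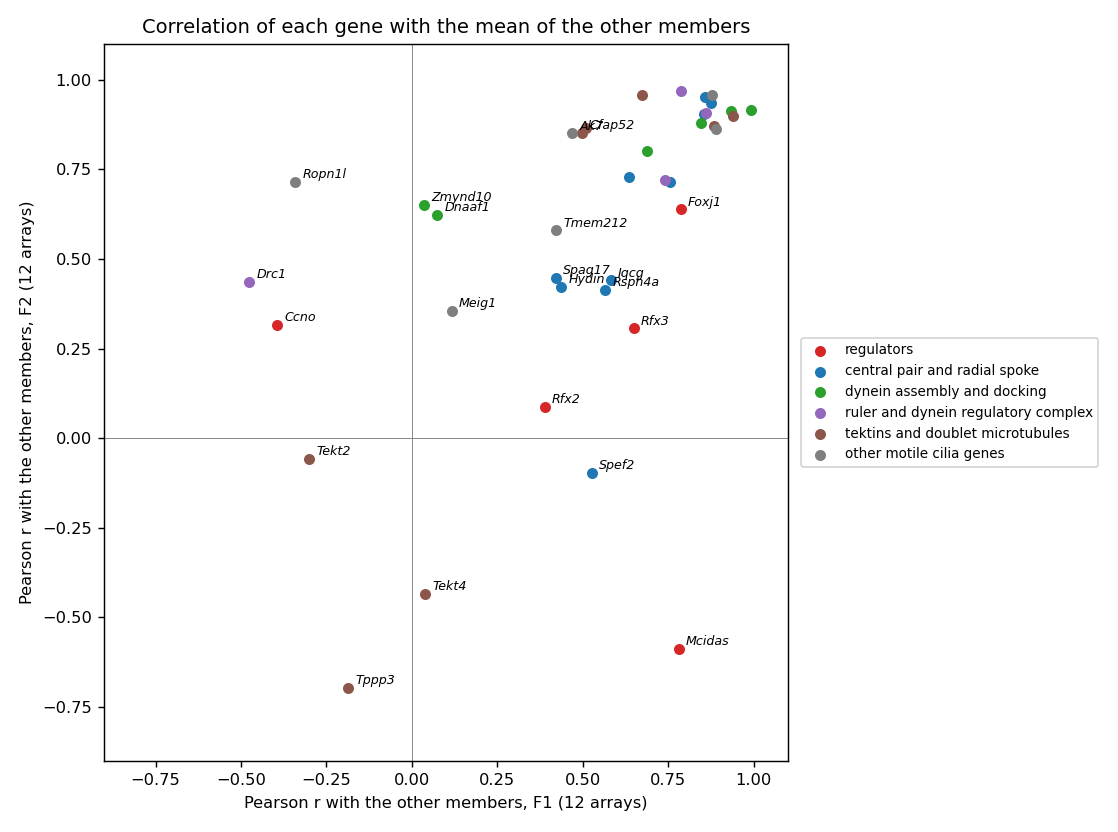
Pearson correlation of each of the 39 genes with the mean of the other members, after subtracting group means, over the 12 F1 arrays (x axis) and the 12 F2 arrays (y axis); colours give the role, and Foxj1 and the genes under 0.5 in either generation are named. A block of 11 genes lies over 0.8 on both axes, and Mcidas, Tppp3, Tekt4, Drc1 and Ccno lie away from it.

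Among 13685 other genes well above background on all arrays, those most like the mean of the members, by the smaller of the 2 correlations, were Dnah11 (0.98), Spaca9 (0.94), Slc16a9 (0.93), Ak8 (0.91), Cab39l (0.90), Mia (0.89), Nek5 (0.89), Slc31a1 (0.88), 1110017D15Rik (0.88) and Tcn2 (0.88). Dnah11 is one of the axonemal dynein heavy chains kept out of the list, Ak8 was on the list of further motile cilia genes and Mia on that of ependymal markers. A correlation over 0.8 in both generations was found for 38 of the 13685 genes. In F1 the diet difference of these 10 genes ran from -0.30 (Slc16a9) to 0.48 (Spaca9), and in F2 it was negative for all 10, from -1.31 (Nek5) to -0.27 (Tcn2).

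Further motile cilia genes, listed apart from the 43 members, were matched to a probe for 65 of 76. This list too was chosen with earlier results of these data known, so its counts are not an independent test. Of these 65, 31 were higher in MD F1 at an unadjusted p under 0.05 and 0 lower, with a median of 0.22, while 13 were lower in MD F2 and 2 higher, with a median of -0.18. The 3 smallest p-values in F1 were those of Cfap161 (0.44 ± 0.10), Armc3 (0.46 ± 0.11) and Morn2 (0.37 ± 0.09), with FDRs of 0.185, 0.194 and 0.196. The 3 smallest in F2 were those of Cfap161 (-0.48 ± 0.11), Cfap45 (-0.40 ± 0.10) and Nme9 (-0.65 ± 0.16), each with an FDR of 0.89. Cfap161, a microtubule inner protein, ranged from 7.44 to 7.89 in CD F1 and from 7.89 to 8.23 in MD F1, and from 7.35 to 7.70 in CD F2 and from 6.87 to 7.40 in MD F2. It was the one gene of this list called for the difference between generations (0.91 ± 0.14, FDR = 0.0357), a call that was lost with the choroid plexus level as a term (FDR = 0.166). Of 34 genes of the primary cilium, the immotile antenna of most cells, 7 were higher in MD F1 at an unadjusted p under 0.05 and 1 lower. Their median was 0.08. In F2 1 was higher and 1 lower, with a median of 0.01. Over all genes the shares were 7.82% higher and 5.54% lower in F1, and 2.84% and 2.81% in F2.

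Markers of choroid plexus varied along with the motile cilia genes. Choroid plexus, the secretory epithelium of the ventricles, was followed by 15 markers, of which 11 were well above background on all arrays and none was at background throughout. All 15 had positive values in F1 (median 0.39) and negative values in F2 (median -1.99), none with an unadjusted p under 0.05. Ttr, the transthyretin gene that defines choroid plexus, ranged from 11.10 to 16.55 in CD F1, from 11.11 to 17.66 in MD F1, from 10.04 to 17.96 in CD F2 and from 10.73 to 17.59 in MD F2. The mean over the 15 markers, relative to the generation, ranged from -1.82 to 0.58 in CD F1 and from -1.76 to 1.65 in MD F1, and from -1.92 to 2.58 in CD F2 and from -2.04 to 1.93 in MD F2. MD minus CD was 0.42 in F1 and -1.83 in F2, and neither passed an exact permutation test over the arrays of a generation (two-sided p = 0.519 in F1 and 0.139 in F2, adjusted p = 0.639 and 0.277 over 16 such tests).

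The level of the 39 genes, their mean relative to the generation, ranged from -0.19 to 0.04 in CD F1 and from -0.22 to 0.40 in MD F1, and from -0.32 to 0.60 in CD F2 and from -0.43 to 0.28 in MD F2. In F2, CD replicates 1, 2, 3 and 5 and MD replicate 2 had both the highest choroid plexus levels (1.93 or more) and the highest motile cilia levels (0.25 or more), and the other 7 arrays had -0.65 or less and -0.18 or less. As the F2 arrays fall into these clusters, no pooled correlation is given. Within the 3 F2 slides the choroid plexus level differed between diets by -3.40, -2.61 and 0.53, the last on the slide that held both F2 arrays that stood apart. Over the 12 F1 arrays, after subtracting group means, Pearson's r between the 2 levels was 0.74 and Spearman's rho 0.80, and r was 0.95 without the 2 arrays farthest out in choroid plexus level. This was not particular to choroid plexus. The ependymal markers gave r of 0.89 and rho of 0.84, with r of 0.74 without the 2 farthest arrays. Values of r were 0.66 for the further motile cilia genes, 0.54 for thalamus, 0.22 for striatum and -0.05 for hippocampal neurons. They were -0.43 for the primary cilium genes and -0.78 for the sex measure given further on. In these pools, fewer cells of a type and less RNA per cell cannot be told apart.

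With the choroid plexus level as a term in the fit, the median difference of the 39 genes was 0.23 in F1 and -0.10 in F2. The genes past an unadjusted p of 0.05 were then 18 higher and 2 lower in F1, and 7 lower and 1 higher in F2. For single genes in F2 that fit gave -0.69 ± 0.16 for Cfap52, -0.80 ± 0.18 for Ak7, -0.62 ± 0.22 for Tmem212, -0.29 ± 0.16 for Foxj1, -0.16 for Mlf1 and -0.03 for Tekt1. For the difference between generations the median was 0.30, with 13 genes positive at an unadjusted p under 0.05.

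**Figure D4:**
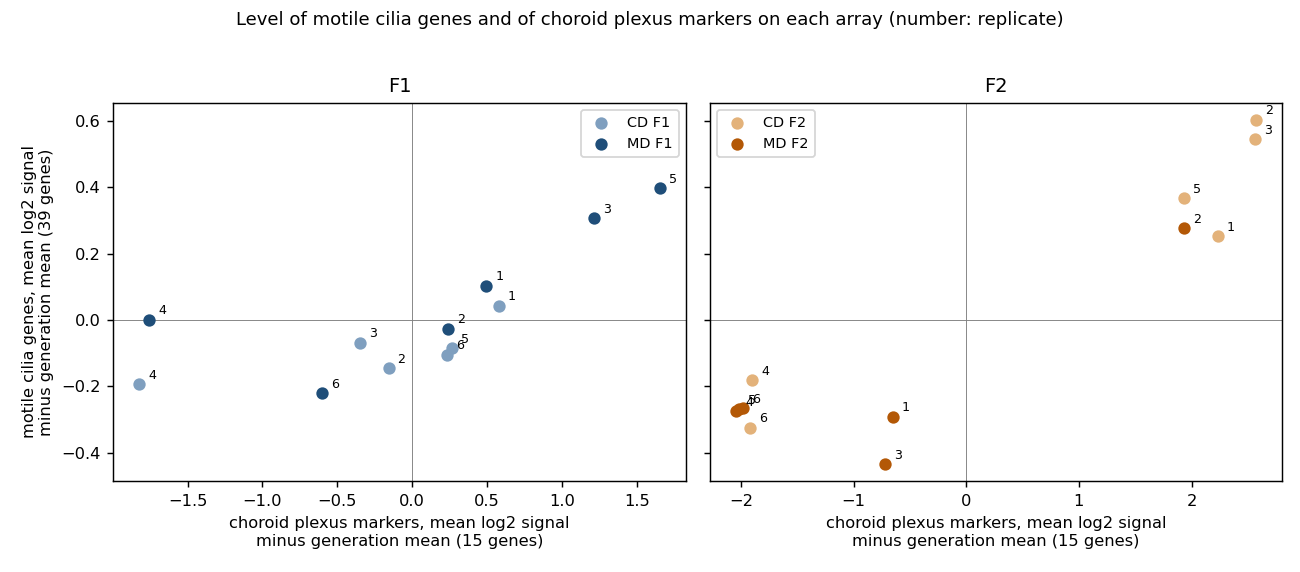
Mean log2 signal of the 39 motile cilia genes (y axis) against that of 15 choroid plexus markers (x axis), both relative to the mean of the generation, for each array of F1 (left) and F2 (right); colours give the diet and numbers the replicate. In F2, 4 CD arrays and MD replicate 2 form the upper right cluster.

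Other marker levels were as follows. The 10 ependymal markers, which astrocytes share in part, differed by 0.01 in F1 (exact permutation p = 0.859) and by -0.25 in F2 (p = 0.013, adjusted p = 0.0519 over the 16 tests). Of the 10, 4 had positive and 6 negative values in F1, and 1 had a positive and 9 had negative values in F2. Among them Mia gave 0.21 and -0.79, Hdc 0.31 and -0.54, Rarres2 0.26 and -0.20, and Cd24a, a surface antigen of ependymal cells, -0.40 and -0.27. Markers of thalamus were lower in MD F1 by 0.19 (exact permutation p = 0.00216, the smallest p that 924 splits of 12 arrays give; adjusted p = 0.0115), and markers of hippocampal neurons by 0.09 (exact permutation p = 0.0368, adjusted p = 0.118). The level of the primary cilium genes was higher in MD F1 by 0.08 and that of the further motile cilia genes by 0.19. Each had an exact permutation p of 0.00216 and an adjusted p of 0.0115. In F2 these levels differed by -0.02 (exact permutation p = 0.519) and -0.22 (exact permutation p = 0.0887, adjusted p = 0.203). All these lists were chosen with earlier results of these data known, so the p-values of their levels are not independent support. The part of all these levels in the motile cilia result was not tested.

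The sex measure, mean log2 signal of 4 Y-linked genes minus that of Xist, ranged from -2.30 to -1.90 in CD F1 and from -2.15 to 0.16 in MD F1. In F2 it was -7.57 and -7.66 on CD replicates 3 and 5 and -7.43 on MD replicate 6, and between 5.23 and 7.26 on the other arrays. High values go with male and low values with female RNA. By this measure F2 pools lay far apart in sex composition, with all F1 pools between them. The diets did not pass the adjusted threshold in it (exact permutation p = 0.0498 in F1 and 0.379 in F2, adjusted p = 0.133 and 0.606). With it as a term, 22 genes were higher and 0 lower in F1 at an unadjusted p under 0.05 (median 0.34), and in F2 9 were lower and 1 higher (median -0.44).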

How the data were processed

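Pooled hippocampal RNA of 24 samples was measured on one-colour (Cy3) Agilent 4x44K v2 mouse arrays. The authors scanned the arrays and deposited background-subtracted, processed intensities of every spot; per the file headers Agilent Feature Extraction 10.7.3.1 and a G2505C scanner were used, while the methods name other versions. The authors also deposited a table of linear intensities, quantile-normalized within each generation. Here, control and irregular spots were left out, log2 intensities were quantile-normalized within a generation, spots of a probe averaged, and MD compared with CD in limma 3.58.1 (R 4.3.3) over all probes, with Benjamini-Hochberg adjustment. The methods name limma and quantile normalization, and the threshold of 0.1 is that of the authors' list of F1 genes. F1 minus F2 was tested in one fit of both generations. Probes were named through RefSeq accessions. The fit was checked on simulated data. The number of arrays limits the precision.

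The members and all lists were chosen with earlier results of these data known. Named were the regulators, the 10, 5 and 5 members with the smallest p in F1, F2 and their difference, members whose groups did not overlap or whose probes disagreed, the 10 genes most like the members and the 3 further motile cilia genes with the smallest p per generation; the remaining members were added for completeness. Alternatives covered scaling, background, spot and probe filters, slide, replicate number, sex measure, choroid plexus level, variance model, F2 code and single arrays.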

Additional observations from a re-analysis of the deposited data

Results flagged for a closer look

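Among 76 sets of 6 arrays looked at (the level of the motile cilia genes and the named genes, by group), 9 held 1 array far from the other 5. Chance gives about 5% of independent sets. These sets share arrays and covarying genes, so the 9 cannot be weighed against that share. MD F2 replicate 2 accounted for 5 of the 9, which are not separate events. In it the level of the 39 genes was 0.28, against -0.43 to -0.27 in the other MD F2 arrays, Cfap52 was 9.34 against 7.81 to 8.36, Mlf1 8.99 against 7.43 to 7.84, Rsph1 10.17 against 9.05 to 9.45 and Tekt1 10.39 against 9.16 to 9.39. The choroid plexus level of the same array was 1.93, against -2.04 to -0.65 in the other MD F2 arrays.

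The other 4 were single genes. Mcidas was 16.98 in CD F1 replicate 4 (17.25 to 17.34 in the others), Tekt1 was 11.15 in CD F1 replicate 1 (10.48 to 10.71), Rfx3 was 8.18 in MD F1 replicate 6 (8.80 to 9.14) and Cfap206 was 3.95 in CD F2 replicate 4 (5.44 to 6.07).

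Cfap161, a motile cilia gene outside the 43 listed, gave diet differences that differed between F1 and F2 by 0.91 on the log2 scale (limma, FDR = 0.0357), and with the choroid plexus level as a term the FDR was 0.166.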

How the results depend on the processing

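Of 438 values of named genes under alternatives, 437 kept their sign. Only genes past an unadjusted p of 0.05 in that comparison were counted. The slide block, the replicate block and the variance model leave the estimate as in the main fit, so they could not turn a sign. Spag17 in F1 turned to 0.33 with the mean of its probes, 1 of which was well above background on no array. In F1, higher genes at an unadjusted p under 0.05 (16) became 6 in a fit of all 24 arrays. The 2 lower genes became 1 with that fit, with normexp on median signals, with the mean of all probes or among the genes well above background on all arrays, and 0 with the sex measure. In F2, the 11 lower genes became 18 with slide as a block, 7 with the choroid plexus level as a term and 17 in the fit of all arrays, where 1 gene (Ccno, 0.0902) passed the FDR. In that fit 18 probes of the whole array passed, against 0 in the main fit. The F2 median became -0.10 with the choroid plexus level, -0.19 with normexp on median signals and -0.31 without dim probes or with the mean of all probes. For the difference between generations, 13 genes were positive with the choroid plexus level, the median was 0.29 with normexp, and 1 gene was negative with the sex measure, with a trended robust prior, with the replicate block or without the 3 arrays that stood apart. The median correlation in F1 was 0.44 after 75th percentile scaling. The cause of these shifts was not tested.

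Leaving out single arrays gave 12 to 20 higher and 0 to 2 lower genes in F1 (0 lower without CD F1 replicate 2, 3 or 6), with 0 called and medians of 0.22 to 0.29. In F2 it gave 1 to 2 higher genes (2 without CD F2 replicate 4) and 9 to 18 lower genes, with 0 called and medians of -0.61 to -0.31. For the difference it gave 0 to 2 called, 18 to 22 positive and 0 to 1 negative genes, and medians of 0.50 to 0.70. The 2 called were Cfap52 and Tmem212, without CD F2 replicate 6 (41 probes called in all) or MD F2 replicate 2 (29).

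Replicate numbers were not shown to pair the samples: arrays of the same number correlated between -0.05 and 0.20 in F1 and between -0.17 and 0.19 in F2, and 0 and 2 of 6 correlated best with their own number. These correlations do not settle pairing. In both F2 diets replicates 1 to 3 carried the code lh and 4 to 6 the code rh, described below. In F1, replicate 4 had the lowest choroid plexus level of either diet (-1.82 in CD and -1.76 in MD). With the replicate block, 0 genes were called in F1 and F2 and 3 for the difference (Cfap52, Foxj1 and Tctex1d4, FDR 0.0681, 0.0593 and 0.0978). For the difference 27 probes of the whole array were then called, against 5 in the main fit. Cfap161 passed the FDR in 35 of 36 alternatives (0.00637 to 0.166), the exception being the choroid plexus term. Normexp on mean signals was not run, as that column is not in the files used here; median signals were used instead, a choice made after seeing the data, as was the restriction to genes well above background on all arrays.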

Other observations

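The F2 labels carry a code, lh or rh, whose meaning they do not state. The 6 arrays marked lh had a mean motile cilia level of 0.16 ± 0.43 (SD) and the 6 marked rh -0.16 ± 0.26, and the choroid plexus levels were 1.32 ± 1.57 and -1.32 ± 1.60. Both codes were present equally in CD F2 and MD F2.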
